A study of Homo sapiens with 15 samples.

Results

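The cadherin and protocadherin genes were followed in IMR32 cells, an established human neuroblastoma line, after doxycycline switched on an RNA hairpin that targets CDK2, a kinase that drives cells into DNA replication. Members were all probe sets whose single gene symbol is CDH followed by a digit, or PCDH followed by a digit, A, B or G. The rule found 121 probe sets of 69 genes among the 54675 probe sets of the array, of which 41091 carry 1 gene symbol. Of these, 46 probe sets measure 21 CDH genes and 75 measure 48 PCDH genes. The letters of the rule also take in PCDH10-DT, a transcript that runs away from PCDH10 and encodes no cadherin. They also take in the pseudogenes PCDHB17P, PCDHB18P and PCDHGB8P, which are counted among the PCDH, beta and gamma genes and had no probe set past the filter described below. Another 16 probe sets name several genes with at least 1 cadherin or protocadherin among them and were not members.

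Total RNA was hybridised to 15 Affymetrix U133 Plus 2.0 arrays, 3 each at 0, 8, 24, 48 and 72 h of doxycycline. Hours are an assumption, as the sources used here name no unit of time. All 5 groups were the same single clone, which carries the tetracycline repressor from pcDNA6/TR and a pTER plasmid with the CDK2 hairpin, so the 0 h cells held both constructs and lacked only the inducer. Each later group had doxycycline at 100 ng/ml, and no group without doxycycline or with another hairpin was sampled at the later times. Time in culture, doxycycline and loss of CDK2 therefore cannot be told apart. It is not stated whether arrays of the same time came from separate cultures, so the p-values rest on a spread between arrays that may be technical.

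Classical cadherins are calcium-dependent adhesion proteins that bind the same cadherin on the neighbouring cell. Their cytoplasmic tails hold p120-type catenins and beta-catenin or plakoglobin, and alpha-catenin couples that complex to actin. Protocadherins lack this catenin-binding tail. The alpha, beta and gamma protocadherins lie in gene clusters from which each neuron chooses a few promoters, whereas the delta protocadherins are single genes that act in cell sorting, axon growth and synapse formation, several of the delta-2 class through the WAVE complex of actin assembly.

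CDK2 itself (204252_at) gave signals of 246, 236 and 214 at 0 h, 101, 92.6 and 90.2 at 8 h, 81.0, 87.8 and 72.4 at 24 h, 52.7, 53.0 and 40.1 at 48 h and 30.0, 40.0 and 20.2 at 72 h. Every later array lay below every 0 h array. Signals are the authors' MAS5 values, and each array's median lay between 15.1 and 20.5. Of 14 noradrenergic neuroblastoma markers, 13 passed the filter on signal described below and 11 were higher at 72 h than at 0 h with none lower, where 31.5% of all genes were higher and 21.9% lower, and their summed signal was 16220 to 17252 at 72 h and 12732 to 13192 at 0 h. TH, the enzyme that makes catecholamine precursors, was the marker below the filter, with a mean of 3.73 at 72 h and 0.633 at 0 h. Of 10 mesenchymal and Schwann cell markers 5 passed, with sums of 4308 to 4748 at 72 h and 5021 to 5774 at 0 h. Of these 5, 1 was higher and 1 lower at 72 h, with a median change of 0.04, beside the same shares over all genes. All but 1 of 9 epithelial markers were below the filter, with sums of 61.8 to 82.8 at 72 h and 52.8 to 71.5 at 0 h. All but 1 of 8 endothelial markers were below it too, with sums of 51.5 to 76.2 at 72 h and 40.3 to 64.7 at 0 h, as were all 5 immune markers, with sums of 40.8 to 52.8 at 72 h and 37.5 to 68.4 at 0 h. The part of these shifts in the results below was not tested, and in bulk RNA fewer cells of a type and less RNA per cell cannot be told apart.

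Most of the family gave low signals in these cells. The filter kept probe sets whose mean log2(signal + 16) over the 15 arrays reached the median of all probe sets, 5.03, which corresponds to a signal of 16.6. It passed 26 of the 121 members (21.5%), from 17 genes, against 27307 of 54613 over all probe sets that are not controls. The 95 others had mean signals of 0.693 to 17.7 with a median of 4.45, and no single array of theirs exceeded 44.1. At the threshold itself, the dimmest member that passed averaged 17.6 and the brightest that did not averaged 17.7, since the filter used the mean of log values. Because that mean runs over all times, a probe set could pass on its late arrays alone.

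Of the 48 probe sets of clustered protocadherins 4 passed, 1 each for PCDHA9, PCDHB14, PCDHGA4 and PCDHGB5. In the alpha cluster 1 of 7 passed, in the beta cluster 1 of 24 and in the gamma cluster 2 of 17. Probe sets that name several genes of a cluster lie outside these counts, and some of those for the alpha and beta clusters passed. Among single-gene protocadherins, 6 of 11 delta-2 probe sets passed (PCDH8, PCDH17, PCDH18 and PCDH19) and 3 of 12 delta-1 probe sets, all of PCDH9. The type I classical cadherins passed with 3 of 7 probe sets (CDH2 and CDH15) and the type II cadherins with 9 of 29 (CDH6, CDH10, CDH11, CDH22 and CDH24). CDH1, the epithelial E-cadherin, was below the filter with mean signals of 1.75 and 1.89, as was CDH5, the endothelial VE-cadherin, at 9.31. PCDH10, a delta-2 protocadherin that binds the WAVE complex, gave mean signals of 2.25 to 10.5 over 4 probe sets.

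**Figure D1:**
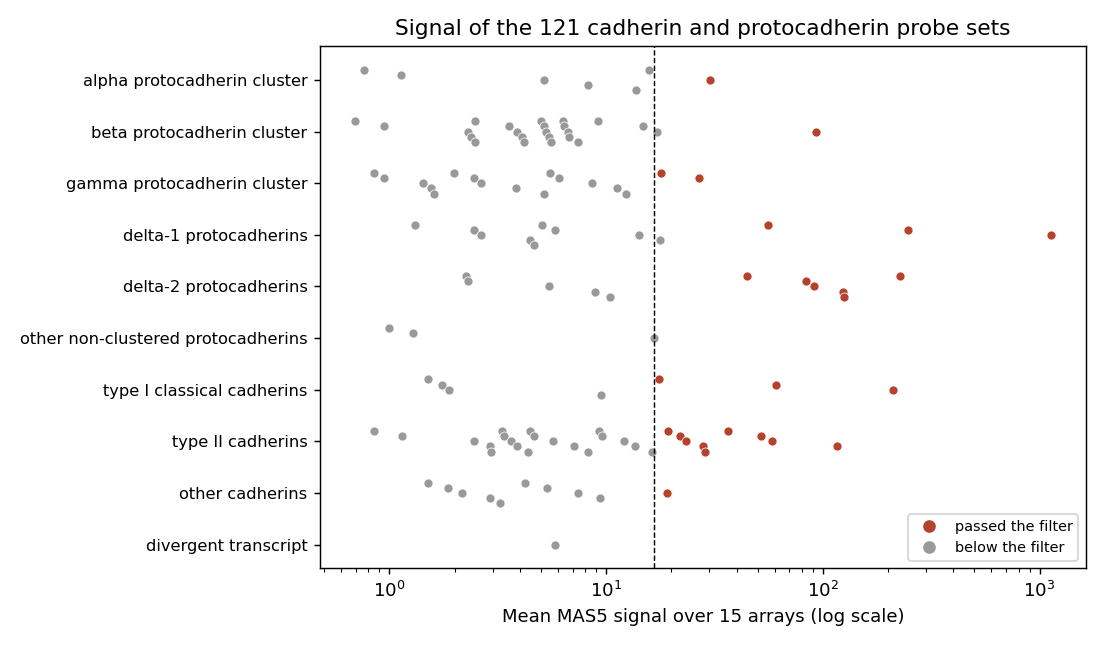
Mean MAS5 signal over the 15 arrays (log scale) of each of the 121 member probe sets, by structural class, with the 26 that passed the filter in red and the 95 that did not in grey. The dashed line marks a signal of 16.6, and the alpha, beta and gamma clusters together have 4 red points among 48.

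Few members moved early, and by 72 h most of the measurable ones had. A member was called at an adjusted p under 0.05, from limma fitted to all 27307 probe sets that passed and adjusted over all of them. At 8 h no member was called in either direction, 2 had an unadjusted p under 0.05, and 0.242% of all probe sets were called. At 24 h, 4 of 26 were higher and 0 lower than at 0 h, where 4.68% of all probe sets were called higher and 4% lower. At 48 h, 12 were higher and 3 lower, against 20.8% and 13.8% of all probe sets. At 72 h, 15 were higher and 5 lower, against 27.1% and 19.3%. The median member changed by 0.04, 0.21, 0.44 and 0.54 on the log2 scale at 8, 24, 48 and 72 h, while the median of all probe sets changed by 0.01, 0.05, 0.08 and 0.09. Genes with several probe sets, PCDH17 and CDH6 among them, weigh on the members' median: with 1 probe set a gene it was 0.01, -0.04, 0.05 and 0.22 at these times, against 0.02, 0.05, 0.08 and 0.10 over all genes. Centring every array on its median moved the median of all probe sets at 72 h to -0.03 and the members' to 0.42. All calls then split into 5236 higher and 6694 lower at 72 h, against 7410 and 5274 without centring, and those of the members into 12 higher and 5 lower. At 48 h the members split into 8 higher and 4 lower with centring and 7 higher and 4 lower with quantile normalisation, and at 24 h into 4 and 1 with centring and 2 and 1 with quantile normalisation. For all probe sets, centring gave 3813 higher and 4804 lower at 48 h, against 5689 and 3771 without it, and 682 higher and 1260 lower at 24 h, against 1278 and 1091. Quantile normalisation gave 4856 higher and 4345 lower of all probe sets at 48 h and 960 higher and 1174 lower at 24 h. These counts and medians describe the members that passed, and a probe set that is bright at late times had more chance to pass.

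Counted by gene at 72 h, 7 of 17 had a probe set called higher (PCDH17, PCDH9, CDH2, CDH6, CDH11, CDH10 and PCDHB14) and 5 had one called lower (PCDH19, PCDH8, PCDH18, CDH15 and CDH24), with no gene in both groups. Over all 11774 genes, each by its brightest probe set, 31.5% were higher and 21.9% lower at 72 h. A gene with several probe sets had more chances of a call, and with 1 probe set a gene 7 of the 17 were higher and 4 lower. Between successive times, no member was called at 24 h against 8 h, where 9 had an unadjusted p under 0.05 and 3.62% of all probe sets were called. At 48 h against 24 h, 7 were higher and 1 lower, where 7.92% of all probe sets were higher and 6.96% lower. The 7 were the 3 probe sets of PCDH17 and 1 each of CDH2, CDH10, CDH6 and PCDHB14, and the 1 was PCDH19. At 72 h against 48 h, 4 were higher and 0 lower, where 655 of all 27307 probe sets (2.4%) were higher and 1021 lower. These 4 were 2 probe sets of PCDH17, 1 of CDH2 and 1 of CDH11. Single arrays weighed on these counts: the 24 h count of 4 fell to 1 without 24 h replicate 1 and to 2 without 0 h replicate 1 or 2, the 48 h count of 15 to 9 without 0 h replicate 2 or 48 h replicate 3, and the 8 calls at 48 h against 24 h to 5 without 48 h replicate 2 or 3. The 4 calls at 72 h against 48 h fell to 0 without 48 h replicate 1 or 2, to 1 without 72 h replicate 1 and to 2 without 72 h replicate 3.

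**Figure D2:**
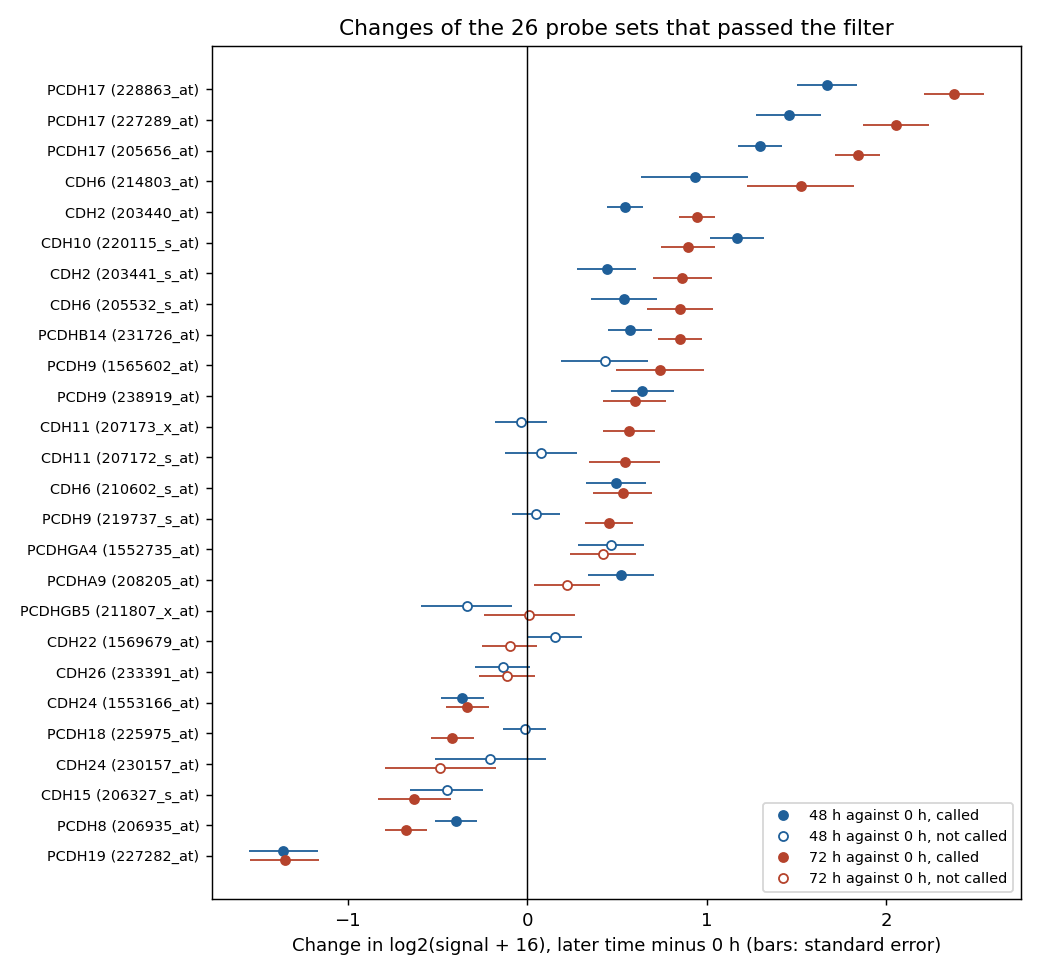
Change in log2(signal + 16) from 0 h (horizontal axis) with its standard error for the 26 members that passed the filter, at 48 h (blue) and 72 h (red), ordered by the change at 72 h. Filled points passed the threshold: the 3 PCDH17 probe sets stand at the top with 1.84 to 2.38 at 72 h, and PCDH19 at the bottom with -1.35.

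PCDH17, a delta-2 protocadherin that in mouse brain guides axon bundling and synapse formation, had the greatest rise of the family. Its probe set 228863_at read 33.3, 38.1 and 56.2 at 0 h, 38.2, 38.1 and 58.2 at 8 h, 80.6, 75.2 and 69.8 at 24 h, 161, 137 and 214 at 48 h and 309, 279 and 265 at 72 h. The arrays at 24 h already lay clear of those at 0 h, and those at 48 and 72 h lay above all earlier ones. The change was 0.06 ± 0.17 at 8 h, 0.66 ± 0.17 at 24 h (adjusted p = 0.0208), 1.67 ± 0.17 at 48 h (adjusted p = 7.43e-07) and 2.38 ± 0.17 at 72 h (adjusted p = 3.78e-09), where ± is the standard error of the fit and every change is in log2(signal + 16), a scale that understates the change of dim probe sets. As a ratio of mean signals, 72 h stood 6.68-fold above 0 h. Probe set 205656_at read 52.8, 52.1 and 66.5 at 0 h, 60.2, 66.9 and 72.5 at 8 h, 107, 89.5 and 78.7 at 24 h, 159, 150.2 and 181 at 48 h and 271, 240 and 226 at 72 h. Probe set 227289_at read 26.3, 31.5 and 45.2 at 0 h, 26.1, 42.3 and 61.4 at 8 h, 72.7, 56.8 and 68.3 at 24 h, 132.8, 111.4 and 118 at 48 h and 211, 180 and 182 at 72 h. In both the 24 h arrays lay above those at 0 h and the 72 h arrays above all others, with rises at 72 h of 1.84 ± 0.12 (205656_at, adjusted p = 2.09e-09) and 2.06 ± 0.18 (227289_at, adjusted p = 7.32e-08). In steps, 228863_at gained 1.01 ± 0.17 at 48 h against 24 h (adjusted p = 0.000432) and 0.70 ± 0.17 at 72 h against 48 h (adjusted p = 0.0175). The call at 72 h against 48 h was lost without 48 h replicate 1 or 2. The 24 h calls were less firm than those at 48 and 72 h against 0 h: 228863_at lost its call without 0 h replicate 1 or 2 or 24 h replicate 1 or 2 (adjusted p of 0.102, 0.0803, 0.0778 and 0.055), 227289_at without 0 h replicate 1 or 2 or 24 h replicate 1 or 3 (0.101, 0.0746, 0.083 and 0.0696), and 205656_at without 24 h replicate 1 (0.0566). Quantile normalisation also ended the 24 h calls of 228863_at (0.0652) and 227289_at (0.0528).

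The promoter of PCDH17 is shown because the gene changed most, from 250 bases before to 50 after the RefSeq start on the plus strand (GRCh38.p14, chr13:57631494-57631793), with the CCAAT box, a common promoter element, in capitals.
PCDH17 promoter: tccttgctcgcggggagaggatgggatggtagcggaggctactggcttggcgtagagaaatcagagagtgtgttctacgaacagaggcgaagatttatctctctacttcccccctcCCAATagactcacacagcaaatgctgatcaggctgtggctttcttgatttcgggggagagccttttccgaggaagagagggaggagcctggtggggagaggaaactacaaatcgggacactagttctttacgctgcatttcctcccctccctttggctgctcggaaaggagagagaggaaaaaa
The box begins 134 bases before the start. CCAAT or its reverse complement ATTGG occurs in 34.6% of the 35116 promoters of that table, and in 22 of 34 promoters of members outside the protocadherin clusters.

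PCDH19, another delta-2 protocadherin and the gene of an X-linked epilepsy, had the greatest fall. Its only probe set, 227282_at, read 44.6, 92.8 and 53.5 at 0 h, 71.6, 67.2 and 76.7 at 8 h, 66.0, 54.3 and 54.8 at 24 h, 13.6, 16.3 and 12.4 at 48 h and 9.3, 12.4 and 22.4 at 72 h. All 6 arrays at 48 and 72 h lay below all 9 earlier arrays. The log2 change was -0.06 ± 0.19 at 24 h (adjusted p = 0.904), -1.36 ± 0.19 at 48 h (adjusted p = 3.12e-05) and -1.35 ± 0.19 at 72 h (adjusted p = 1.69e-05). The drop lay between 24 and 48 h, with -1.30 ± 0.19 at 48 h against 24 h (adjusted p = 0.00014) and 0.01 ± 0.19 at 72 h against 48 h (adjusted p = 0.99). Late signals sat below the signal of 16.6 used as the filter, except for 72 h replicate 3, so the low level is poorly resolved.

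Its promoter is shown as that of the gene that fell most (GRCh38.p14, chrX:100410224-100410523, minus strand), with ATTGG, the CCAAT box read on the other strand, in capitals 71 bases before the start.
PCDH19 promoter: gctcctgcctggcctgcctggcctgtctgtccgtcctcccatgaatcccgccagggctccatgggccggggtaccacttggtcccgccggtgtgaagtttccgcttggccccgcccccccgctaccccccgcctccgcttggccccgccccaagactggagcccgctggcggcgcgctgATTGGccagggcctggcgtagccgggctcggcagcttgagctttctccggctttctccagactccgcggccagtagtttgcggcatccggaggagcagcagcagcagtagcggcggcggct
Both of these oppositely moving delta-2 genes thus carry the box in this window, and the match is a description of the letters alone.

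PCDH8, a delta-2 protocadherin known in rat neurons as the activity-induced arcadlin, read 238, 253 and 243 at 0 h, 336, 279 and 344 at 8 h, 209, 265 and 230.1 at 24 h, 160, 195 and 193 at 48 h and 125, 162 and 158 at 72 h (206935_at). The 8 h arrays lay above all others and the 48 and 72 h arrays lay below those at 0 h. Its change was 0.36 ± 0.12 at 8 h (adjusted p = 0.317), -0.40 ± 0.12 at 48 h (adjusted p = 0.0132) and -0.67 ± 0.12 at 72 h (adjusted p = 0.000142), and the 48 h call was lost without 48 h replicate 1 (-0.31, adjusted p = 0.072). PCDH18, the remaining measurable delta-2 gene, read 56.3, 63.2 and 53.6 at 72 h and 95.3, 79.9 and 72.7 at 0 h (225975_at). Between these times it read 106.2, 84.6 and 91.8 at 8 h, 96.7, 108.7 and 100.2 at 24 h and 89.5, 80.9 and 74.2 at 48 h. The 24 h arrays lay above those at 0 h (0.26 ± 0.12, adjusted p = 0.195, not called), and the change at 48 h was -0.01 ± 0.12 (adjusted p = 0.95). PCDH18 was called lower at 72 h than at 0 h by 0.42 on the log2 scale (SE 0.12, adjusted p = 0.00854), and not without 0 h replicate 1 (-0.33, adjusted p = 0.0559). Of the 4 delta-2 genes measured, then, PCDH17 was higher at 72 h than at 0 h, while PCDH19, PCDH8 and PCDH18 were lower.

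**Figure D3:**
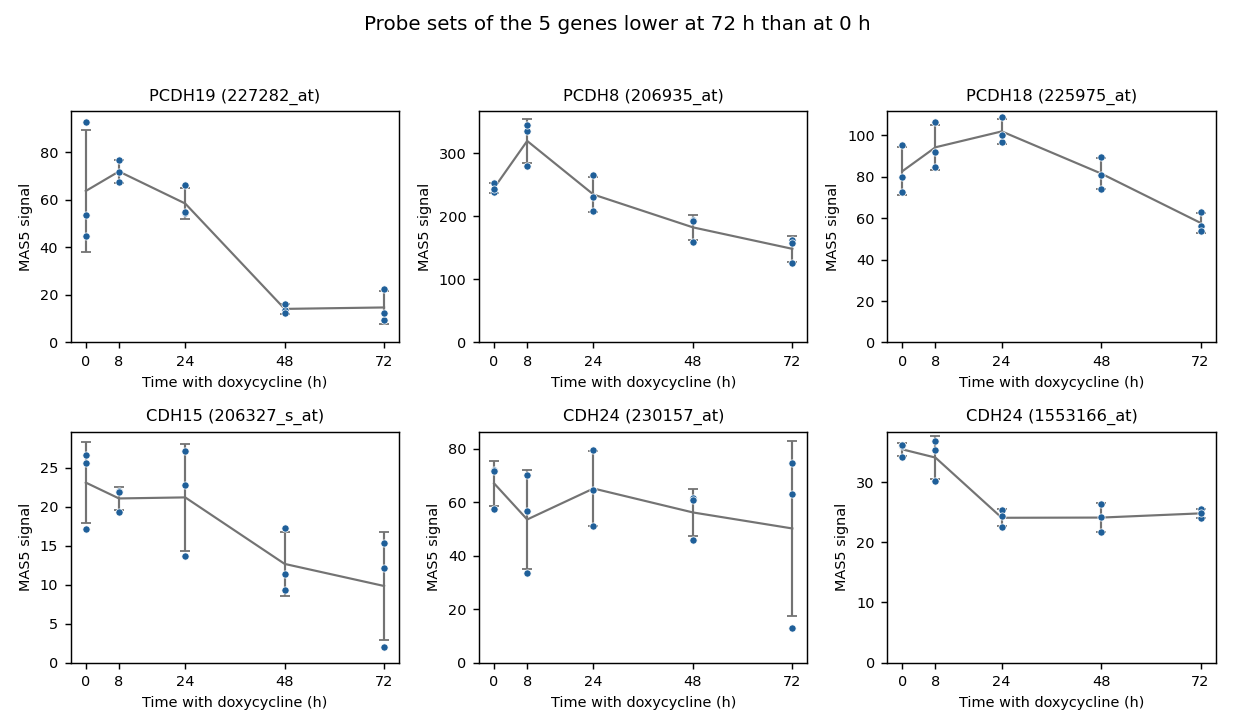
MAS5 signal (vertical axes, from 0) on every array against time in hours for probe sets of the 5 genes called lower at 72 h; points are arrays, lines join means and bars are SD (n = 3). PCDH19 drops between 24 and 48 h, and PCDH8 is highest at 8 h and lowest at 72 h; the CDH24 probe set 230157_at was not called.

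PCDH9, a delta-1 protocadherin of neurons, rose at 72 h. Probe set 219737_s_at read 1365, 1181 and 1738 at 72 h and 991, 957 and 1132 at 0 h. The groups did not overlap, and 72 h replicate 3 stood above the rest. The change was 0.46 ± 0.13 (adjusted p = 0.0101), and without that array it was 0.31 (adjusted p = 0.0653), and with median centring 0.34 (adjusted p = 0.0603). At 48 h the same probe set had changed by 0.05 ± 0.13 (adjusted p = 0.822). Its probe set 238919_at read 298, 251 and 282 at 72 h and 150, 162 and 229 at 0 h, a rise of 0.60 ± 0.18 (adjusted p = 0.00961), and at 48 h of 0.64 ± 0.18 (adjusted p = 0.00872). Its calls rested on 0 h replicate 1 at 72 h (0.49 without it, adjusted p = 0.0544) and, at 48 h, on 0 h replicate 1 (adjusted p = 0.0501) and 48 h replicate 3 (adjusted p = 0.0595). The third that passed, 1565602_at, rose by 0.74 ± 0.24 at 72 h (adjusted p = 0.0191), from arrays at 108, 50.4 and 69.5 at 72 h and 38.1, 34.2 and 39.8 at 0 h, and lost its call without 72 h replicate 1 (adjusted p = 0.119) or 0 h replicate 2 (adjusted p = 0.0583).

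Probe sets that name several clustered genes were not members, and those called higher at 72 h are given further below. Among the clustered members, PCDHB14 was the single gene called at 72 h. It read 77.6, 66.6 and 72.5 at 0 h, 65.0, 57.1 and 80.0 at 8 h, 65.3, 61.8 and 73.3 at 24 h, 110.2, 122 and 113 at 48 h and 135, 132 and 164 at 72 h (231726_at). The first 3 times overlapped and the last 2 lay above them all. The change was -0.09 ± 0.12 at 24 h (adjusted p = 0.712), 0.57 ± 0.12 at 48 h (adjusted p = 0.00145) and 0.85 ± 0.12 at 72 h (adjusted p = 2.06e-05). PCDHA9 (208205_at) read 42.6, 32.4 and 38.8 at 48 h and 24.7, 15.1 and 25.5 at 0 h, a rise of 0.52 ± 0.18 (adjusted p = 0.0348). It was not called at 72 h, with 41.8, 27.1 and 17.4 (0.22 ± 0.18, adjusted p = 0.345), and the 48 h call was lost without 0 h replicate 2 (adjusted p = 0.16), 48 h replicate 1 (0.107) or 48 h replicate 3 (0.0846) and with quantile normalisation (0.0936), median centring (0.0744) or no filter (0.0891). Of the gamma genes that passed, PCDHGA4 (1552735_at) read 11, 12.6 and 10.6 at 0 h, 7.6, 13.3 and 16.5 at 8 h, 20.2, 25 and 21.9 at 24 h, 27.5, 25.7 and 14 at 48 h and 31.1, 18.1 and 14.8 at 72 h. All its arrays from 24 h on lay above those at 0 h, with changes of 0.47 ± 0.18 at 48 h (adjusted p = 0.0573) and 0.42 ± 0.18 at 72 h (adjusted p = 0.0691) that missed the threshold. Its means of 11.4 at 0 h and 12.5 at 8 h lay under the signal of the filter, so it passed through its later arrays. It was called at 48 h without 48 h replicate 3 (0.64, adjusted p = 0.0196) and at 72 h without 72 h replicate 3 (0.55, adjusted p = 0.0325), and under 5 other alternatives at 48 h (adjusted p of 0.0199 to 0.0494) and 3 at 72 h (0.0284 to 0.049). PCDHGB5 changed at 72 h by 0.01 ± 0.25 (adjusted p = 0.975) and was not called at any time.

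The PCDHB14 promoter is shown as that of the 1 beta gene with a single-symbol probe set past the filter (GRCh38.p14, chr5:141223093-141223392, plus strand), with GGCGCT in capitals, a stretch that holds the CGCT core of the conserved element of clustered protocadherin promoters to which CTCF binds.
PCDHB14 promoter: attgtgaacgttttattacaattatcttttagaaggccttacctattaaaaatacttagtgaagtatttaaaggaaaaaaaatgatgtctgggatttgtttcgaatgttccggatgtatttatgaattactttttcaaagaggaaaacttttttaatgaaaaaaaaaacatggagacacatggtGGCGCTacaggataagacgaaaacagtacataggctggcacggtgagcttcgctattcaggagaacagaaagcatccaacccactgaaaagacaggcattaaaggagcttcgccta
GGCGCT begins 66 bases before the start. Read on either strand (its reverse complement is AGCGCC), it occurs in 12 of 13 beta promoters (92.3%), in 6 of 14 gamma promoters, in 1 of 6 alpha promoters, in 5 of 34 promoters of the other members (14.7%) and in 21.7% of all promoters in the table. Beta genes whose probe sets did not pass thus share these letters with PCDHB14.

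CDH2, or N-cadherin, the main classical cadherin of neural cells, rose by 48 h and again by 72 h. Probe set 203440_at read 157, 156 and 164 at 0 h, 140.4, 149 and 176 at 8 h, 179, 195 and 177 at 24 h, 238, 236 and 244 at 48 h and 311, 288 and 368 at 72 h. The 48 h arrays lay above all earlier arrays and the 72 h arrays above those at 48 h. The change was 0.19 ± 0.10 at 24 h (adjusted p = 0.268), 0.55 ± 0.10 at 48 h (adjusted p = 0.000403) and 0.95 ± 0.10 at 72 h (adjusted p = 6.6e-07), a 2.03-fold ratio of mean signals at 72 h. It was also called in both late steps, by 0.36 ± 0.10 at 48 h against 24 h (adjusted p = 0.0224) and 0.40 ± 0.10 at 72 h against 48 h (adjusted p = 0.0248). The call at 72 h against 48 h was lost without 48 h replicate 1 or 2. The second probe set, 203441_s_at, read 70.7, 88.6 and 116 at 72 h and 38.8, 36.9 and 52.3 at 0 h, a change of 0.86 ± 0.16 (adjusted p = 0.000337). Its 48 h change of 0.44 ± 0.16 (adjusted p = 0.045) was lost without 0 h replicate 1 (0.127), 0 h replicate 2 (0.151), 48 h replicate 1 (0.132) or 48 h replicate 3 (0.127) and with quantile normalisation (0.187), median centring (0.149), no filter (0.0925) or a pseudocount of 64 (0.0572), all adjusted p.

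The CDH2 promoter is shown as that of the type I cadherin that rose, from the first of its 2 RefSeq entries (GRCh38.p14, chr18:28177081-28177380, minus strand), with ATTGG in capitals 76 bases before the start.
CDH2 promoter: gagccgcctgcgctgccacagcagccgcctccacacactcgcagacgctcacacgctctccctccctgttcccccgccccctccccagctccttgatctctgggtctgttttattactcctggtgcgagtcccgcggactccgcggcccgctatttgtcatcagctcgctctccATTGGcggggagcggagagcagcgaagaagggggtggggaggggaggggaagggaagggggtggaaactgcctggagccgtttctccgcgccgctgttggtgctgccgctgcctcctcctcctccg
CDH15, the muscle M-cadherin, was the other type I gene that passed and was near the filter. It read 15.3, 2.0 and 12.2 at 72 h and 26.6, 17.1 and 25.6 at 0 h (206327_s_at), with no overlap. The change of -0.63 ± 0.20 (adjusted p = 0.0166) was not called without 72 h replicate 2 (-0.39, adjusted p = 0.113), 0 h replicate 1 (-0.56, adjusted p = 0.0616) or 0 h replicate 3 (-0.58, adjusted p = 0.0546).

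**Figure D4:**
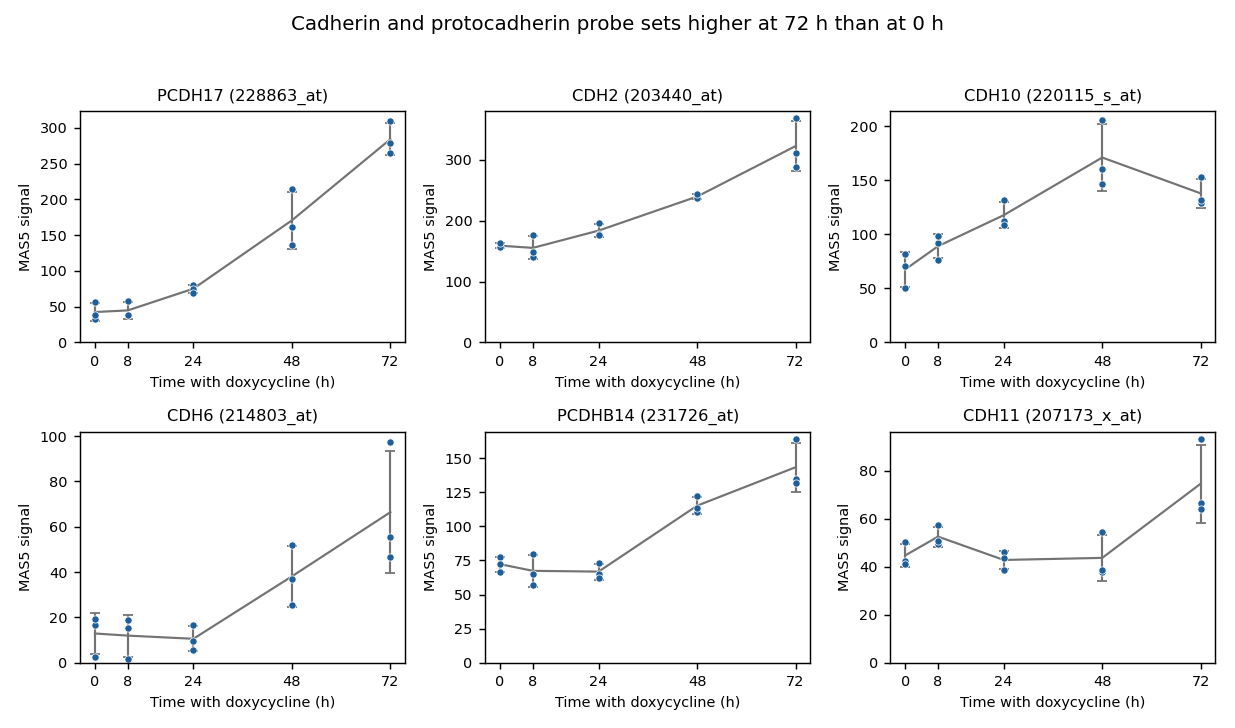
MAS5 signal (vertical axes, from 0) on every array against time in hours for 6 genes called higher at 72 h, each by its probe set of greatest change; points are arrays, lines join means and bars are SD (n = 3). The mean of PCDH17 is 284 at 72 h against 42.5 at 0 h, CDH10 is highest at 48 h, and PCDHB14 and CDH6 overlap their 0 h arrays at 8 and 24 h and are higher at 48 and 72 h.

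Among the type II cadherins, which sort neurons into pools and layers, CDH10, CDH6 and CDH11 rose. CDH10, found mainly in brain, read 81.9, 70.5 and 50.4 at 0 h, 76.8, 91.8 and 98.9 at 8 h, 113, 109 and 132 at 24 h, 147, 161 and 206 at 48 h and 129, 153 and 132 at 72 h (220115_s_at). It was called at 24 h by 0.69 ± 0.15 (adjusted p = 0.00725), at 48 h by 1.17 ± 0.15 (adjusted p = 1.11e-05) and at 72 h by 0.90 ± 0.15 (adjusted p = 9.2e-05). The 48 and 72 h arrays overlapped, and the step between them was -0.27 ± 0.15 (adjusted p = 0.319). CDH10 and PCDH17 were the genes behind the 4 calls at 24 h.

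CDH6, a cadherin of kidney and neural crest, was near background until 24 h. Probe set 214803_at read 16.8, 2.4 and 19.4 at 0 h, 15.5, 1.4 and 18.9 at 8 h, 16.5, 9.4 and 5.7 at 24 h, 25.4, 36.9 and 52.0 at 48 h and 46.7, 55.4 and 97.2 at 72 h. Every array at 48 and 72 h lay above every earlier one. The change was 0.93 ± 0.30 at 48 h (adjusted p = 0.0216) and 1.52 ± 0.30 at 72 h (adjusted p = 0.000443), and the step at 48 h against 24 h was 1.02 ± 0.30 (adjusted p = 0.0278). Probe set 205532_s_at read 14.2, 15.6 and 13.0 at 0 h, 22.1, 23.7 and 40.4 at 48 h and 30.4, 37.7 and 49.0 at 72 h. Probe set 210602_s_at read 10.9, 15.6 and 20.1 at 0 h, 31.9, 24.5 and 28.2 at 48 h and 29.7, 21.7 and 37.8 at 72 h. In both the 48 and 72 h arrays lay above those at 0 h, and the change at 72 h was 0.85 ± 0.18 for 205532_s_at (adjusted p = 0.00103) and 0.53 ± 0.17 for 210602_s_at (adjusted p = 0.0142). Mean signals of the 3 probe sets at 0 h were 12.9, 14.3 and 15.5, under the signal of the filter, so they passed through their late arrays. The 48 h calls of all 3 were lost without 48 h replicate 3 (adjusted p of 0.1 for 214803_at, 0.165 for 205532_s_at and 0.0666 for 210602_s_at), without 0 h replicate 2 (0.13, 0.0526 and 0.062) and with quantile normalisation (0.0508, 0.106 and 0.0916) or no filter (0.0579, 0.0777 and 0.0757). At 48 h they were also lost for 214803_at without 48 h replicate 2 (0.0535), for 205532_s_at without 0 h replicate 1 (0.0665) or 3 (0.0793), and for 210602_s_at without 0 h replicate 1 (0.126) or 48 h replicate 1 (0.0935). Median centring took the 48 h adjusted p of 205532_s_at to 0.1 and of 210602_s_at to 0.083, and a pseudocount of 1 that of 214803_at to 0.0638. At 72 h, 210602_s_at lost its call without 0 h replicate 1 (0.0742) or 72 h replicate 3 (0.0722) and with quantile normalisation (0.0557) or median centring (0.0543).

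CDH11, a cadherin of mesenchymal cells and bone, was called higher at 72 h than at 48 h in the brighter of its probe sets that passed. Probe set 207173_x_at read 66.6, 64 and 93.4 at 72 h, 37.7, 38.8 and 54.6 at 48 h and 50.4, 42.6 and 41.2 at 0 h. The 72 h arrays lay above both other groups. The change was 0.57 ± 0.15 at 72 h against 0 h (adjusted p = 0.00408) and 0.60 ± 0.15 against 48 h (adjusted p = 0.0203), with -0.03 ± 0.15 at 48 h against 0 h (adjusted p = 0.888). The call at 72 h against 48 h was lost without 48 h replicate 1 or 2. The probe set 207172_s_at read 18.4, 31.2 and 35.0 at 72 h and 19.2, 14.4 and 9.0 at 0 h, which overlap. It was not called at 72 h against 48 h (0.47 ± 0.20, adjusted p = 0.188). Its means of 14.2 at 0 h and 16.2 at 48 h lay under the signal of 16.6 used as the filter. Its change of 0.54 ± 0.20 at 72 h (adjusted p = 0.0331) was lost without 0 h replicate 2 (0.0653) or 3 (0.14) or 72 h replicate 2 (0.0983) or 3 (0.123), and with quantile normalisation (0.0948), median centring (0.101) or no filter (0.0789).

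CDH24 was the type II cadherin that was called lower. Probe set 1553166_at read 25.5, 24.0 and 24.9 at 72 h and 36.0, 34.2 and 36.1 at 0 h. The groups were tight and apart, and the change was -0.33 ± 0.12 (adjusted p = 0.0292), after -0.36 ± 0.12 at 48 h (adjusted p = 0.0259). Leaving out any 1 of the 6 arrays took the 72 h adjusted p to between 0.052 and 0.0732, and every array but 48 h replicate 1 did so at 48 h, with 0.051 to 0.0936. Testing without the filter gave an adjusted p of 0.0783 for 72 h and 0.0751 for 48 h, and fitting the 6 arrays alone gave 0.069 for 72 h and 0.0508 for 48 h. The other probe set, 230157_at, read 63.1, 74.6 and 13.0 at 72 h and 72.0, 57.5 and 71.9 at 0 h, and was not called (-0.48 ± 0.31, adjusted p = 0.213), 72 h replicate 3 standing far below the rest. CDH22 (-0.10 ± 0.15, adjusted p = 0.631) and CDH26 (-0.11 ± 0.15, adjusted p = 0.587) were not called at 72 h or at any other time.

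The list of catenins and junction adaptors, which also holds nectins, had calls in both directions. Of 13 catenin and junction adaptor genes that passed, each read by its brightest probe set, 5 were higher and 4 lower at 72 h, where 31.5% of all 11774 genes were higher and 21.9% lower. JUP, or plakoglobin, which can take the place of beta-catenin on the cadherin tail, averaged 293 ± 7.16 at 72 h and 28.5 ± 4.85 at 0 h (SD, n = 3 each), a change of 2.80 ± 0.11. CTNNA1, the broadly expressed alpha-catenin, averaged 221 ± 17.4 at 72 h and 722 ± 15.8 at 0 h, a change of -1.64 ± 0.09, and was already at -1.12 at 24 h. CTNNA2, the neuronal alpha-catenin, averaged 406 ± 86.5 at 72 h and 149 ± 11.8 at 0 h, a change of 1.34 ± 0.13. CTNNAL1, an alpha-catenin relative, averaged 291 ± 21.2 at 72 h and 775 ± 48.4 at 0 h, a change of -1.37 ± 0.10. All 4 passed the threshold. CTNNB1, or beta-catenin, averaged 710.5 ± 91.8 at 72 h and 1139 ± 64.2 at 0 h, a change of -0.67 ± 0.09 (adjusted p = 1.27e-05). The median change of the 13 genes was -0.01 at 72 h, against 0.10 over all genes.

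**Figure D5:**
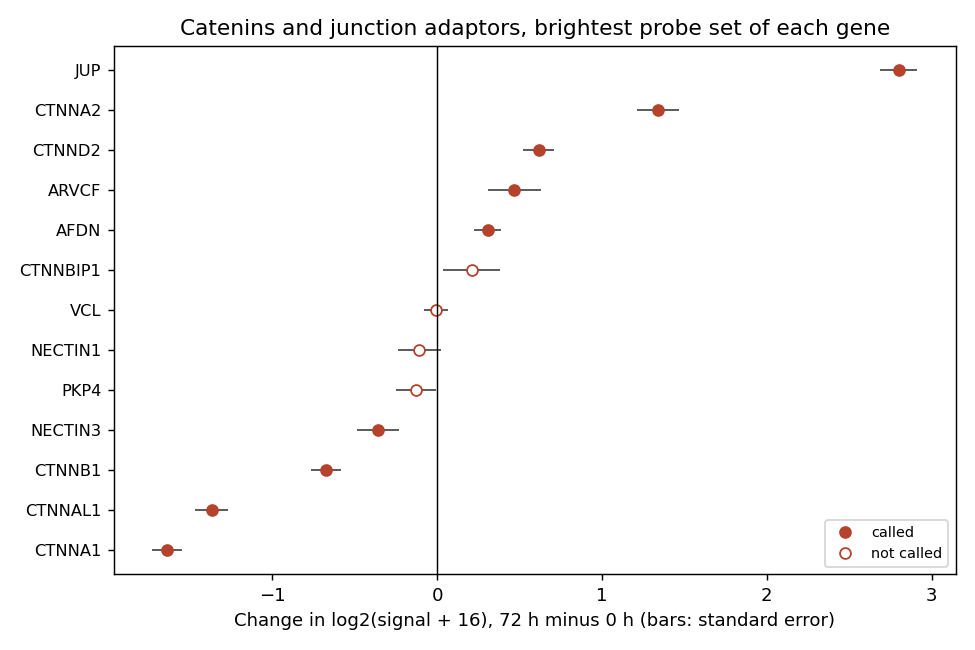
Change in log2(signal + 16) at 72 h against 0 h (horizontal axis) with its standard error for the 13 catenin and junction adaptor genes that passed the filter, 1 probe set a gene. Filled points passed the threshold: JUP, CTNNA2, CTNND2, ARVCF and AFDN to the right of 0, and CTNNA1, CTNNAL1, CTNNB1 and NECTIN3 to its left.

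Other members of the cadherin superfamily were mostly higher where they were measurable. Of 10 that passed, 6 were higher and 1 lower at 72 h, with a median change of 0.40, against 31.5% higher, 21.9% lower and a median of 0.10 over all genes. CELSR3, a cadherin of axon guidance, averaged 433 ± 5.78 at 72 h and 221 ± 2.40 at 0 h (0.92 ± 0.10). CLSTN2, a synaptic calsyntenin, averaged 6.90 ± 4.10 at 72 h and 26.8 ± 5.48 at 0 h (-0.91 ± 0.20). The related CLSTN3 averaged 62.1 ± 14.7 at 72 h and 26 ± 2.63 at 0 h (0.88 ± 0.18). FAT3, a giant cadherin of retinal neurons in mouse, averaged 31.6 ± 15.1 at 72 h and 11.4 ± 1.67 at 0 h (0.76 ± 0.21). The 0 h mean of FAT3 lay under the signal of 16.6 used as the filter, so it passed through its later arrays.

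Regulators of the clustered protocadherin promoters were mostly lower. Of 15 genes of the CTCF, cohesin and related list, all passed, 2 were higher and 10 lower at 72 h, and the median change was -0.30, against 31.5% higher, 21.9% lower and a median of 0.10 over all genes. CTCF averaged 469 ± 4.59 at 72 h and 628 ± 19.6 at 0 h (-0.41 ± 0.07). SMC1A, a cohesin core subunit, averaged 745 ± 63.8 at 72 h and 1459 ± 151 at 0 h (-0.95 ± 0.08). STAG2, another cohesin subunit, averaged 646 ± 29.1 at 72 h and 1107 ± 15.4 at 0 h (-0.76 ± 0.08). The 2 that rose were SETDB1, a histone methyltransferase (0.79 ± 0.09), and MAU2, part of the cohesin loader (0.67 ± 0.11).

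Protocadherin effectors and WAVE complex genes had 7 higher and 1 lower of 10 that passed, with a median of 0.33, where 31.5% of all genes were higher and 21.9% lower. CYFIP2 and NCKAP1, both WAVE subunits, went opposite ways: CYFIP2 averaged 1044 ± 56.8 at 72 h and 250.4 ± 20.2 at 0 h (1.99 ± 0.09), and NCKAP1 averaged 601 ± 54.5 at 72 h and 1381 ± 174 at 0 h (-1.18 ± 0.10). PRKCA, a protein kinase C, changed by 1.24 ± 0.15 and FYN, a Src-family kinase, by 0.56 ± 0.07. Of 10 proteases that cut cadherins 2 were higher and 2 lower, where 31.5% of all genes were higher and 21.9% lower, with MMP14, a membrane-bound matrix metalloproteinase, at 0.56 ± 0.14 and ADAM10, a main sheddase of N-cadherin, not called (0.11 ± 0.07, adjusted p = 0.231). Of 7 transcription factors of cadherin switching, 3 were higher and 2 lower, beside the same shares over all genes: SNAI2 averaged 247 ± 74.4 at 72 h and 616 ± 19.4 at 0 h (-1.30 ± 0.16), SNAI1 averaged 60.9 ± 10.5 at 72 h and 128 ± 26.8 at 0 h (-0.89 ± 0.20), and TCF4, TCF3 and ZEB1 changed by 0.32, 0.31 and 0.20.

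The genes whose log2 signal tracked the greatest riser and faller most closely over the 15 arrays were sought among the 11773 other genes, each by its brightest probe set. For PCDH17 (228863_at) they were SYT4 (Pearson r = 0.984), PEX5L (0.983) and ISL1 (0.983). For PCDH19 they were CEP72 (0.967), DNAJC9 (0.963) and POLR3K (0.961). These values are descriptions: all genes share the same 15 arrays and the same order in time.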

How the data were processed

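Total RNA of 15 samples of IMR32 cells was labelled with biotin and hybridised to 1 Affymetrix U133 Plus 2.0 array each, per the labels' protocols. The deposited values are intensity per probe set on a linear scale, made with MAS5 in GCOS, per the submitters' processing notes; MAS5 as a method sets matched against mismatch probes and scales each array, and the target value used is not given in the sources used here. The files hold no detection calls or scan dates, so no batch could be tested and the number of arrays limits the precision.

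From the deposited intensity values, log2(signal + 16) was tested with limma 3.58.1 in R 4.3.3 (lmFit and eBayes with trend, 5 time groups of 3 arrays, all 15 arrays in 1 fit, Benjamini-Hochberg adjustment at 0.05). Of 54613 probe sets that are not controls, the 27307 whose mean log2 value reached the median entered the fit. The fitting code was tested on simulated data. Gene names come from GEO's platform annotation of 2016; 1801 probe sets name several genes and 11721 none. All 121 members matched RefSeq by Entrez ID with no symbol changed. Promoter windows come from RefSeq (GRCh38.p14), where 52 of the 69 member genes had 67 entries; no other coordinates are given.

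The members and the gene lists were chosen with earlier results of these data known. Values of single arrays are given for every member called at any time against 0 h, other members are given by ranges and counts, up to 4 genes of a list are named by the size of their change at 72 h (others were named after their values were seen), and likeness is the Pearson correlation of log2(signal + 16). Replicate numbers were checked for pairing by the correlation of deviations from the group means: same-numbered arrays gave -0.11 to 0.30 (median 0.08, 30 pairs) and others -0.26 to 0.25 (median -0.05, 60 pairs). The ranges overlapped, but 11 of 15 arrays correlated best with an array of their own number. Because the arrays share only a number, the main fit did not pair them, and a replicate block was run as an alternative. Alternatives were pseudocounts of 1 and 64, quantile normalisation, median centring, no filter, the brightest 25% of probe sets, 1 probe set a gene, no trend, array weights, the 6 arrays of a comparison alone, a replicate block, a minimum change of 1, and leaving out arrays.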

Additional observations from a re-analysis of the deposited data

Results flagged for a closer look

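Probe sets that name several genes lie outside the member rule, and 7 of the 16 with a cadherin or protocadherin among their names passed the filter. They are given here because they lie outside the comparisons above and some of them had all 72 h arrays above all 0 h arrays. At 72 h, 5 of the 7 were called higher and 1 lower than at 0 h, where 27.1% of all probe sets were higher and 19.3% lower. Of those called higher, 3 carry the same 15 alpha cluster names. Alpha transcripts share their last exons, so such a probe set can read several of them. The first of them, 223435_s_at, read 105, 103 and 110.2 at 0 h, 103, 98.1 and 114 at 8 h, 111, 111 and 137 at 24 h, 202, 195 and 186 at 48 h and 231, 222 and 210.3 at 72 h. The arrays at 48 and 72 h lay above all earlier ones, and the change at 72 h was 0.96 ± 0.10 (adjusted p = 4.88e-07). The others with these names changed by 1.03 ± 0.20 (210674_s_at, adjusted p = 0.000474) and 0.61 ± 0.17 (224212_s_at, adjusted p = 0.00587) at 72 h.

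In the beta cluster, 223854_at names PCDHB9 and PCDHB10. It read 131, 140 and 124 at 72 h and 57.9, 71.9 and 60.1 at 0 h, with no overlap, and changed by 0.90 ± 0.15 (adjusted p = 0.00012). Like PCDHB14 it was not higher at 24 h (-0.04 ± 0.15, adjusted p = 0.905) and was called at 48 h (0.60 ± 0.15, adjusted p = 0.00577). The probe set called lower, 232054_at, names LINC02339 and PCDH20, a single-gene protocadherin, and read 131, 149 and 182 at 72 h and 205, 209 and 221 at 0 h, a change of -0.43 ± 0.10 (adjusted p = 0.00232).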

How the results depend on the processing

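Of the 20 member probe sets called at 72 h, 5 kept their call under every alternative in which they were tested (the 3 of PCDH17, 214803_at of CDH6, and PCDH19). Not all 20 entered every alternative: the brightest 25% of probe sets held 7 members, and 1 probe set a gene held 17. As said above, 214803_at passed the filter through its late arrays. Over all 20, 377 alternative values were computed, of which 328 stayed called in the same direction, 49 were no longer called and 0 changed sign. No member was called at 8 h under any alternative, where 4 to 110 of all probe sets were called. Alternatives also added calls at 24 h for PCDH9 (1565602_at and 238919_at), CDH2 (203441_s_at) and CDH24 (1553166_at), at 48 h for CDH15, PCDH9 (1565602_at) and PCDHGA4, and at 72 h for PCDHGA4. PCDHGA4, too, passed the filter through its later arrays. With 1 probe set a gene the counts called against 0 h were 2, 9 and 11 at 24, 48 and 72 h, with 1 at 24 h against 8 h. Over all 11774 genes the same counts were 1584, 5175, 6531 and 681. Among the brightest 25% of probe sets, where 7 members remained, the member counts were 6 at 48 h, 7 at 72 h, 2 at 24 h against 8 h and 5 at 48 h against 24 h. In the same order, 6418, 8021, 1017 and 3415 of all 13654 such probe sets were called. A minimum change of 1 left 0, 5 and 5 against 0 h at 24, 48 and 72 h, 3 at 48 h against 24 h and 0 at 72 h against 48 h. It left 136, 1048, 2237, 393 and 176 of all 27307 probe sets in that order. Array weights gave 8 at 24 h and 3 at 24 h against 8 h, beside 4244 and 981 of all 27307 probe sets. Leaving out every replicate 3 array gave 7 at 24 h and 2 at 24 h against 8 h, beside 2423 and 654 of all. A pseudocount of 64 and no filter each gave 1 at 24 h against 8 h, beside 943 and 597 of all probe sets tested. The fit with a replicate block gave 3 calls at 24 h against 8 h and 6, 15 and 20 against 0 h at 24, 48 and 72 h. Of all probe sets that fit called 1354, 2921, 10142 and 13345 in the same order. The arrays share only a number: 11 of 15 correlated best with an array of their own number, a hint from the data and not the design. Leaving out 8 h replicate 3 and 72 h replicate 3, the arrays of lowest weight (0.352 and 0.394) and chosen after seeing the data, gave 5, 16 and 18 against 0 h at 24, 48 and 72 h and 2 at 24 h against 8 h. The calls over all probe sets were then 3638, 10944, 13133 and 753. Leaving out 1 array at a time gave 1 to 5 calls against 0 h at 24 h, 9 to 13 at 48 h and 15 to 18 at 72 h, with 0 to 2 at 24 h against 8 h, 5 to 7 at 48 h against 24 h and 0 to 5 at 72 h against 48 h. Over all probe sets these fits called 1388 to 1739, 7658 to 8506 and 10967 to 12205 against 0 h. In the 3 steps they called 394 to 831, 2510 to 3576 and 802 to 1540. Beyond the number of arrays and probe sets entering each fit, the cause of these shifts was not tested. Members with signals near the filter are limited by the background of the array.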

Other observations

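With no filter, 54613 probe sets were tested, of which 7353 were called higher and 4967 lower at 72 h against 0 h. Of the 121 members, 18 were called higher and 7 lower. The calls included 7 further member probe sets, all with low signals, so their sizes are poorly resolved. CDH7, a type II cadherin found in migrating neural crest in chick, read 10.4, 1.0 and 1.1 at 72 h and 21.0, 32.0 and 25.8 at 0 h (220679_s_at), a change of -1.09 (adjusted p = 0.00427). CDH23, the tip-link cadherin of inner ear hair cells, read 0.7, 1.9 and 3.9 at 72 h and 13.6, 17.4 and 13.8 at 0 h (1552436_a_at), a change of -0.77 (adjusted p = 0.00155). In both, every 72 h array lay below every 0 h array. CDH3, the epithelial P-cadherin, read 12.8, 18.6 and 25.5 at 72 h and 1.9, 3.6 and 2.0 at 0 h (203256_at), a change of 0.90 (adjusted p = 0.00052).

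Another PCDH9 probe set, 219738_s_at, just below the filter, read 31.3, 28.7 and 16.2 at 72 h and 1.1, 6.7 and 1.7 at 0 h, a change of 1.10 (adjusted p = 0.00108), in the direction of the 3 PCDH9 probe sets that passed. The other calls among these further probe sets were CDH8, a type II cadherin, with changes of 0.45 (217574_at) and 0.34 (231438_x_at), and CDH16, the kidney cadherin, at -0.29 (206517_at). Without the filter PCDHGC3, a gamma protocadherin, was called lower at 24 h against 8 h (214563_at, -0.56, adjusted p = 0.0474), 1 of 378 probe sets called lower there.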
